A study of Mus musculus with 4 samples.

Results

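Imprinted growth genes are genes that are copied mainly from 1 parental allele in at least some tissues, and many act on the growth of the embryo and placenta. Of 10 such genes listed by symbol, *Igf2r*, *Phlda2*, *Grb10*, *Peg3*, *Mest*, *Nnat*, *Impact* and *Plagl1* had a value, 8 of the 9779 genes with one. *Peg10* and *Cdkn1c* have no row in the 2 deposited tables and were not analysed here. RNA-Seq was performed on LF2 cells, female mouse embryonic stem cells (ESCs) of strain 129/J, which had been grown on feeder cells and then passaged without them. The cells were exposed for 24 hr to PBS and DMSO, to PBS and 10 µM GSK-J4, to 50 µg/ml L-ascorbic acid (AA) and DMSO, or to AA with GSK-J4. This compound is a small molecule inhibitor of the H3K27 demethylases Utx and Jmjd3. The study reports that it also inhibits demethylation of H3K4me3, through other JmjC demethylases. AA is a cofactor of the same enzyme family. Each of the 4 conditions has 1 library, so a difference has no replicate check, and no test was run. Nothing says how many cultures stand behind a library, so a difference between cultures and one between treatments cannot be told apart.

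The parental alleles of these genes carry different DNA methylation at control regions, and in ESCs that methylation is kept by factors such as Zfp57 and Trim28. By textbook knowledge, maternally expressed members such as *Igf2r*, *Grb10* and *Phlda2* restrain growth, and several paternally expressed members such as *Mest* and *Peg3* promote it. The strain is inbred and the values are totals per gene, so the alleles cannot be told apart here and nothing below measures imprinting itself.

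The start regions of *Grb10*, the member with the highest ratio with GSK-J4, and of *Mest*, the well expressed member with the lowest, are shown with their CpG dinucleotides, the sites of DNA methylation. Both genes have other starts, and the window shown is the one richest in CpGs for each. The 250 bases before the start were taken from RefSeq on build GRCm38.p6, and capitals mark each CpG. The *Grb10* window is chr11:12037421-12037670 on the minus strand, and the *Mest* window is chr6:30737800-30738049 on the plus strand.
Grb10: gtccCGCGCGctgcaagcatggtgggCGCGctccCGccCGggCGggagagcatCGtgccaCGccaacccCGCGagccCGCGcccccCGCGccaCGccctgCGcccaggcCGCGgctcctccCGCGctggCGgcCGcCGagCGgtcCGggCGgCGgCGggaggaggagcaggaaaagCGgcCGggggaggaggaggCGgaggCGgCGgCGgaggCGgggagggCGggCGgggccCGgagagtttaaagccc
Mest: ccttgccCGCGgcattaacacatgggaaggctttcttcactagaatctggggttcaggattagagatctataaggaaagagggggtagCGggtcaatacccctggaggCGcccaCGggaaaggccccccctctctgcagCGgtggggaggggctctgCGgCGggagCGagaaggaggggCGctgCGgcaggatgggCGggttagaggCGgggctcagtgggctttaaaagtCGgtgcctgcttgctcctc
The *Grb10* window holds 40 CpGs, more than 98.7% of all 32851 windows, and the *Mest* window holds 14, against a median of 6. The other *Grb10* window, chr11:12027972-12028221, holds only 8, and the *Mest* window at chr6:30733256-30733505 holds 7, so the windows of 1 gene differ too. The letters TGCCGC, the core of the motif bound by Zfp57, were searched on both strands. They were found 2 times in the *Mest* window and 0 times in the *Grb10* window, and 8.68% of the windows used hold them. Over the 10 windows of 7 members, a match was found in 3 windows, which belong to *Mest* and *Plagl1*. The *Mest* windows with a match, chr6:30737800-30738049 and chr6:30737803-30738052, overlap almost wholly, so the same letters are counted in both. The motif itself holds a CpG, and the members' windows hold 7 to 40 CpGs against the median of 6, so the 8.68% is over windows poorer in CpGs. A match is a description of the letters and not of binding.

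Levels are given in FPKM, which sets the fragments of a gene against its exon length and the number of mapped fragments in the library, and a log2 ratio is the log2 of the treated over the control FPKM after adding 1 to each. A ratio was used where FPKM was at least 1 in either library, and a gene is called where it was at least 2-fold higher or lower on that scale. Adding 1 understates the change of genes with low levels. The summed FPKM was 360621 with PBS and DMSO, 275575 with PBS and GSK-J4, 342327 with AA and DMSO and 271205 with AA and GSK-J4. Relative depth, read from the steps of low values, was 0.642 and 0.525 in the 2 GSK-J4 libraries against 1 and 0.794 in the PBS and AA libraries with DMSO. The value 0.525 is tentative, since 1.05 scored only 0.909% lower. The 9 ESC markers summed to 2317, 1390, 2095 and 1258 FPKM in the order above, and none was below 23.5. Among them *Utf1* was called lower in both comparisons, with log2 ratios of -1.58 and -1.77, and *Tdgf1* only with AA, at -1.01 after -0.78 without it. The 4 fibroblast markers with a value, of 10 listed, summed to between 26.3 and 42.6 FPKM, of which *Vim* gave most. The log2 ratios of *Vim* with GSK-J4 were -0.75 and -0.65, while *Col1a1*, a collagen of fibroblasts, was 2.83, 4.28, 3.24 and 4.19 FPKM in the order above and so higher in both GSK-J4 libraries. In each comparison 2 of the 4 were higher and 2 lower. The 4 trophoblast markers with a value, of 8 listed, summed to between 15.5 and 21.02 FPKM. Their sum was lowest with PBS and DMSO and highest with AA and DMSO. Without AA 2 of the 4 were higher with GSK-J4 and 2 lower, with a median log2 ratio of 0.11. Among the lower ones *Plac1* was called, from 1.77 to 0.276 FPKM. With AA 3 passed, of which 2 were higher and 1 lower, with a median of 0.29. Of 7 primitive endoderm markers listed, 1 had a value, between 92.6 and 99.4 FPKM, with log2 ratios with GSK-J4 of -0.02 and 0.04. The ESC sum was lower in both GSK-J4 libraries, and so was the fibroblast sum, through *Vim*. The part of these markers in the results below was not tested. In bulk RNA, fewer cells with a transcript and less of it per cell cannot be told apart.

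Across the expressed genes, 456 of 9196 (4.96%) were called higher with GSK-J4 without AA, and 322 (3.5%) were called lower. In the presence of AA, 377 of 9139 (4.13%) were called higher and 309 (3.38%) lower. The share of higher among the called genes was 58.6% without AA, and it was 79.7% after centring on the median, 84.4% after scaling to the upper quartile and 89.2% after scaling to the same total. With AA these shares were 55.0%, 77.1%, 82.2% and 86.3%. In the absence of AA the median log2 ratio of all genes was -0.17, and in its presence -0.16. It differed with level. When genes were put into 10 bins of equal size by mean level, it was 0.30 and 0.26 in the lowest bin and -0.59 and -0.53 in the highest.

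Among the members, *Grb10* was called higher with GSK-J4 in both comparisons and *Mest* was called lower without AA. This is 1 of 8 in each direction without AA, against the 4.96% and 3.5% of all genes. With AA it is 1 of 7 higher and 0 of 7 lower, against 4.13% and 3.38%. *Igf2r* was higher in both comparisons by less than 2-fold. The other members differed by less than 2-fold on the scale with 1 added. In linear FPKM *Nnat* with AA had a fold of 0.277 and *Plagl1* without AA one of 2.27, both at low levels. The *Nnat* fold rests on coding sequence groups that fell to 0, as given below. The members had a median of -0.20 without AA and of -0.15 in its presence, near that of all genes. The 3 maternally expressed members did not move together: *Grb10* and *Igf2r* were higher and *Phlda2* was at -0.30 and -0.73, so their medians, 0.72 and 0.75, are the values of *Igf2r*. The paternally expressed ones had medians of -0.31 over 5 members and of -0.54 over 4, as *Plagl1* did not pass with AA. All genes had medians of -0.17 and -0.16. At the upper quartile the paternal medians were -0.04 and -0.30. At the same total they were 0.06, with 3 higher and 2 lower, and -0.22, and the maternal ones were 1.09 and 1.07. A split by parental allele was not tested.

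**Figure D1:**
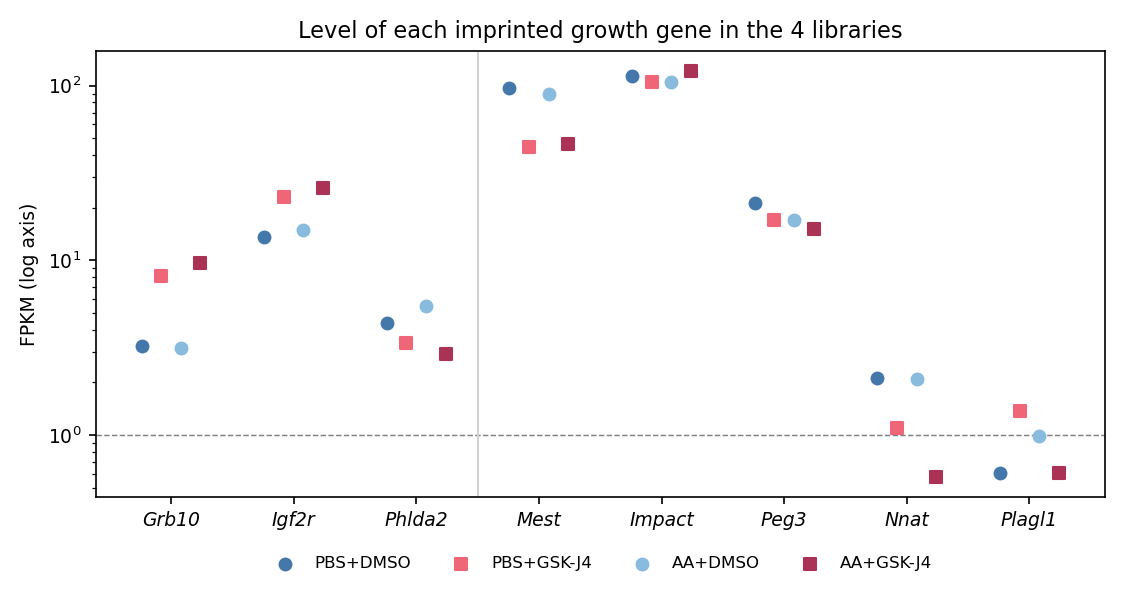
Level of each member in the 4 libraries, in FPKM on a log axis, with 1 point per library. *Grb10* lies between 3.15 and 3.23 in the DMSO libraries and at 8.17 and 9.63 in the GSK-J4 libraries, and *Mest* lies at 96.6 and 89.4 in the former and at 44.5 and 46.0 in the latter.

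The order of the members by level was the same in the 2 DMSO libraries, namely *Impact*, *Mest*, *Peg3*, *Igf2r*, *Phlda2*, *Grb10*, *Nnat* and *Plagl1* from high to low. It was also the same in the 2 GSK-J4 libraries, where *Igf2r* stood above *Peg3*, *Grb10* above *Phlda2* and *Plagl1* above *Nnat*. FPKM is scaled to gene length, so levels of different genes can be set side by side. With 1 library per condition, no spread is known, and it was not tested which neighbours in this order differ.

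*Grb10* encodes an adaptor protein that binds the insulin and IGF1 receptors and restrains growth. The file's locus is chr11:11930510-12037392 on the minus strand of mm10. Its level was 3.23 FPKM with PBS and DMSO, 8.17 with PBS and GSK-J4, 3.15 with AA and DMSO and 9.63 with AA and GSK-J4. Both GSK-J4 libraries were above both DMSO libraries. The log2 ratio with GSK-J4 was 1.12 without AA, a linear fold of 2.53, and 1.36 with AA, a linear fold of 3.06. These ratios were above 96.2% and 98.1% of all genes, and the median of genes of similar level was close to 0 in both. Over the alternatives tried it lay between 0.68 and 1.44 without AA and between 0.84 and 1.64 in its presence, and with a pseudocount of 5 neither passed 2-fold.

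Of the neighbours of *Grb10* within 200 kb, *Fignl1* and *Cobl* had log2 ratios of -0.51 and -0.50 without AA and -0.47 and -0.63 with AA. *Ddc* was below 1 FPKM in both libraries without AA, so its ratio there was not used, and it was at -0.30 with AA. Of 6560 genes with at least 5 FPKM in a library, the 3 whose profile over the 4 libraries was closest to that of *Grb10* were *Wls*, *Tcn2* and *Arl8a*. *Wls*, which carries Wnt proteins to the cell surface, was 2.07, 5.56, 2.17 and 6.70 FPKM in the order above, at a Euclidean distance of 0.0737 between centred log2 profiles. *Tcn2*, a vitamin carrier of the blood, was at a distance of 0.0885, and *Arl8a*, a small GTPase of lysosomes, at 0.0942.

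*Igf2r* encodes the receptor that takes IGF2 to the lysosome for degradation. Its locus is chr17:12682408-12769720 on the minus strand, and it shares 0 exon bases with the antisense RNA *Airn*. The level was 13.6 FPKM with PBS and DMSO, 23.1 with PBS and GSK-J4, 14.9 with AA and DMSO and 25.8 with AA and GSK-J4. Both GSK-J4 libraries were above both DMSO libraries. The log2 ratio with GSK-J4 was 0.72 without AA and 0.75 with AA, linear folds of 1.69 and 1.72. Genes of similar level had medians of -0.27 and -0.30, and *Igf2r* was above 91.4% and 93.1% of all genes. It was called higher in both when the libraries were scaled to the same total, with 1.09 and 1.07. Its 5 neighbours with a value within 200 kb were lower with GSK-J4 in both comparisons, except *Pnldc1*, which had log2 ratios of 0.06 and -0.03. Among them *Mrpl18*, a mitochondrial ribosomal protein gene, was 101.6 FPKM without and 48.7 with GSK-J4 in the PBS libraries, and *Tcp1*, a chaperonin gene, was 269.5 and 134.5.

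*Phlda2* encodes a small protein that limits placental growth. It lies at chr7:143501516-143502556 on the minus strand, in an imprinted cluster. Its level was 4.36 FPKM with PBS and DMSO, 3.37 with PBS and GSK-J4, 5.48 with AA and DMSO and 2.92 with AA and GSK-J4. Both GSK-J4 libraries were below both DMSO libraries, by log2 ratios of -0.30 and -0.73, while the value without AA turned to 0.01 when libraries were scaled to the same total. Its reads are few by an estimate from FPKM and the length of the longest coding transcript, 1.28% to 2.15% of those of *Mest*.

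Of the 4 genes around *Phlda2*, 3 were called higher with GSK-J4 in both comparisons, against 4.96% and 4.13% of all genes. *Slc22a18* and *Osbpl5* were below 1 FPKM in both DMSO libraries and passed the filter only through the GSK-J4 libraries. The count is therefore a description only. *Slc22a18*, an imprinted transporter gene 2.2 kb away, was 0.366 FPKM with PBS and DMSO, 3.50 with PBS and GSK-J4, 0.557 with AA and DMSO and 3.03 with AA and GSK-J4. Its log2 ratios were 1.72 and 1.37. *Osbpl5*, a lipid transfer gene 186 kb away, had 1.22 and 1.11 at levels between 0.225 and 1.97 FPKM. *Cars*, the cysteinyl-tRNA synthetase, had 1.02 in both, and *Nap1l4*, a histone chaperone, had -0.62 and -0.50.

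*Mest* encodes a hydrolase of the mesoderm and is expressed from the paternal allele. Its locus is chr6:30738039-30896778 on the plus strand, which the files share with *Copg2*. Its level was 96.6 FPKM with PBS and DMSO, 44.5 with PBS and GSK-J4, 89.4 with AA and DMSO and 46.0 with AA and GSK-J4. Both GSK-J4 libraries were below both DMSO libraries. In the absence of AA the log2 ratio was -1.10, and in its presence -0.94, which missed the 2-fold threshold. It was below the ratio of all but 2.34% and 4.38% of genes. Among genes of the highest bin of level, whose median was -0.59 and -0.53, it was below all but 5.54% and 10.3%. When libraries were rescaled, *Mest* was no longer called without AA either. *Mest* shares 912 of 2776 exon bases, 32.9%, with *Copg2* on the opposite strand, and strand was not stated, so their reads cannot be told apart there. *Copg2*, a coat protein gene, had log2 ratios of -0.64 and -0.52.

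*Impact*, a regulator of the Gcn2 kinase, was the highest member in each library. Its level was 113 FPKM with PBS and DMSO, 105 with PBS and GSK-J4, 105 with AA and DMSO and 121 with AA and GSK-J4, so the highest was 1.16 times the lowest. The log2 ratio with GSK-J4 was -0.11 without AA and 0.21 with AA. Genes of the highest bin had medians of -0.59 and -0.53, and *Impact* was above 86.2% and 93.9% of them. *Peg3*, a zinc finger gene at chr7:6703855-6730427, was 21.2, 16.9, 16.9 and 15.2 FPKM in the same order. The highest value was in the PBS and DMSO library, and the log2 ratios with GSK-J4 were -0.31 and -0.15, which turned positive when libraries were scaled to the same total.

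*Nnat*, a membrane proteolipid gene of neurons and fat at chr2:157556147-157566839, and *Plagl1*, a zinc finger gene at chr10:13090851-13131692, were the lowest members. *Nnat* was 2.12, 1.09, 2.09 and 0.578 FPKM in the same order, with log2 ratios of -0.58 and -0.97 with GSK-J4. This is a sum over 3 coding groups, of which only 1 had a value above 0 in all 4 libraries, from 0.574 to 1.24 FPKM. That group had log2 ratios with GSK-J4 of -0.28 without AA and 0.004 with AA. The other groups were 0.409 and 1.10 FPKM with AA and DMSO and 0 with AA and GSK-J4. The fall of the sum with AA thus lies in groups estimated at 0. *Plagl1* was 0.607, 1.38, 0.992 and 0.607 FPKM, with a log2 ratio of 0.57 without AA, and with AA both values were below 1, so its ratio there entered no count or median. Their reads, estimated from FPKM and transcript length as for *Phlda2*, were between 0.572% and 6.11% of those of *Mest*, so few reads stand behind these values. *Blcap*, which shares the *Nnat* locus but 0 exon bases, had 0.20 and 0.32.

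**Figure D2:**
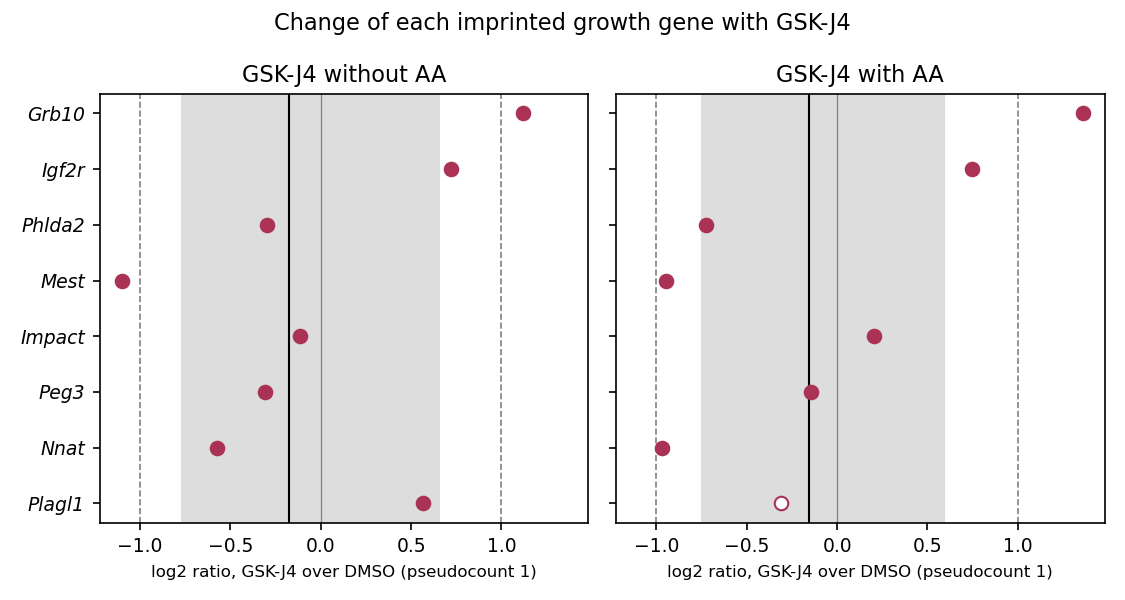
Log2 ratio of each member with GSK-J4, without AA (left) and with AA (right). Filled circles passed the filter on low values and open ones did not, the grey band spans the 10th to 90th percentile of all genes, the black line is their median and dashed lines mark 2-fold. *Grb10* and *Igf2r* lie above the band and *Mest* below it in both panels, and *Nnat* also lies below it in the right panel.

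AA alone was compared across the 2 tables, which were deposited separately, so these levels are set across tables. Without GSK-J4, 50 of 8843 genes (0.565%) were at least 2-fold higher with AA and 65 (0.735%) lower, and 0 of 7 members were called. With GSK-J4, 47 of 9180 (0.512%) were higher and 55 (0.599%) lower, and 0 of 8 members were called. The members' log2 ratios with AA lay between -0.31 and 0.27 without GSK-J4 and between -0.57 and 0.21 with it. The *Peg3* ratio with AA alone was above only 7.08% of genes. The AA comparisons use the same libraries as the GSK-J4 comparisons. For *Grb10*, *Igf2r* and *Mest* the AA ratios were -0.03, 0.13 and -0.11 without GSK-J4.

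The difference between the GSK-J4 ratio with AA and that without AA was 0.24 for *Grb10*, 0.03 for *Igf2r*, 0.16 for *Mest*, 0.16 for *Peg3*, -0.43 for *Phlda2* and -0.39 for *Nnat*. Over 9363 genes, 90% of these differences lay between -0.51 and 0.44. All these members lay inside that range. *Impact* was 0.32, also inside it. *Plagl1* is left out here, since it was below the filter with AA.

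**Figure D3:**
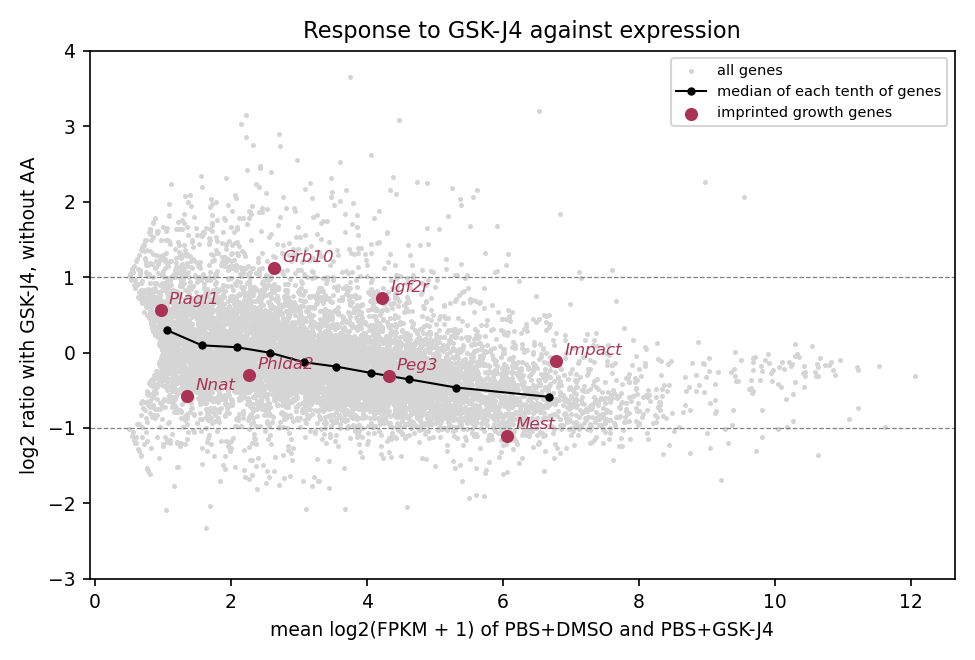
Log2 ratio with GSK-J4 without AA against mean level in log2 FPKM for all expressed genes (grey) and the members. The cloud slopes down from low to high levels, and *Grb10* lies in its upper part and *Mest* near its lower edge at high levels.

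Other imprinted genes were set beside the members. Of 23 with a value, 19 passed without AA, of which 3 were at least 2-fold higher and 1 lower, against 4.96% and 3.5% of all genes. The higher ones were *Slc22a18*, *Osbpl5* and *Sgce*, a sarcoglycan gene with a log2 ratio of 1.11, and the lower one was *Sfmbt2*. With AA, 21 passed, of which 3 were at least 2-fold higher, against 4.13%, namely *Slc22a18*, *Osbpl5* and *Zdbf2*, and 0 were lower. *Slc22a18* and *Osbpl5* are the neighbours of *Phlda2* given above, so those counts overlap with these. Both genes, and *Zdbf2* with AA, were below 1 FPKM with DMSO and passed the filter only through the GSK-J4 library. The median was -0.10 without AA and -0.07 with AA.

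Of 11 imprint maintenance factors, 10 had a value. Without AA 9 passed and 9 were lower, 5 of them at least 2-fold, with a median of -1.01. Over all genes 5798 of 9196 were lower and 3.5% were called lower. Several of these factors have high levels, and all genes of bins 9 and 10 of level, the highest, had medians of -0.46 and -0.59. With AA these bin medians were -0.41 and -0.53. *Trim28*, the corepressor that Zfp57 recruits, was 682 FPKM without and 270 with GSK-J4, and *Zfp57* was 134 and 64.2. *Dppa3*, which protects imprints in the zygote, was 35.5 and 13.2, and the methyltransferase *Dnmt3b* was 48.2 and 10.9. *Dnmt3l*, a cofactor of the de novo methyltransferases, was 82.3 and 40.4. *Dnmt1*, which copies methylation at replication, had log2 ratios of -0.32 and -0.31, above these bin medians. With AA 10 passed, 9 were lower and 3 were at least 2-fold lower, namely *Trim28*, *Dppa3* and *Dnmt3b*. *Zfp57* was at -0.99, short of the threshold, and the list had a median of -0.68. With AA 5684 of 9139 genes were lower and 3.38% were called lower. The calls of this list depended on scaling. Without AA the 5 became 3 after centring or at the upper quartile and 1, *Dnmt3b* at -1.68, at the same total, where *Trim28* was at -0.95 and *Zfp57* at -0.67. With AA the 3 became 3 after centring and 2, *Dppa3* and *Dnmt3b*, under the other scalings.

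**Figure D4:**
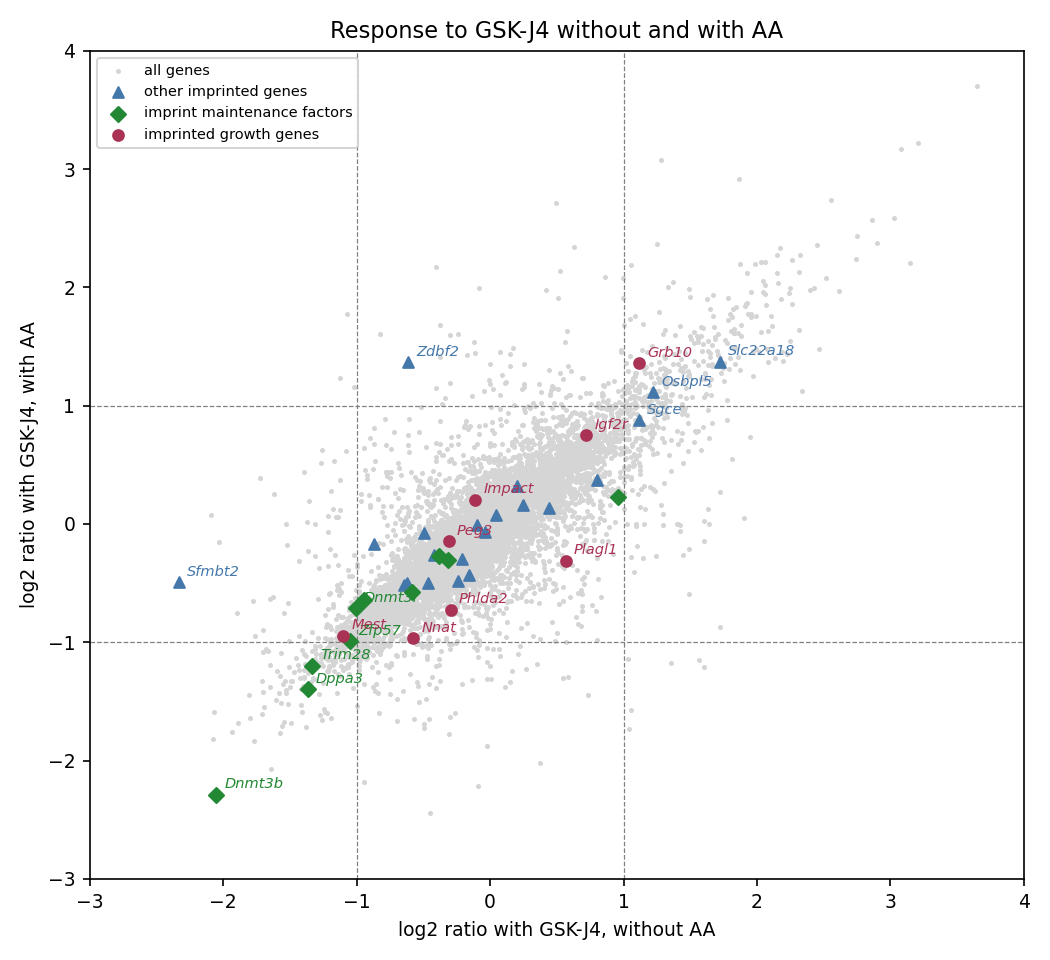
Log2 ratio with GSK-J4 without AA (x axis) against that with AA (y axis), which share no library, for all genes (grey), the members (red), other imprinted genes (blue) and imprint maintenance factors (green). *Grb10* lies at 1.12 and 1.36 and *Igf2r* at 0.72 and 0.75, with *Mest* and most maintenance factors at the lower left.

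Of 18 genes listed for the insulin-like growth factor pathway, to which *Igf2r* and *Grb10* belong, 15 had a value. Without AA the listed ligands and the receptors of IGF1 and insulin did not pass the filter, so the count there leaves them out. Without AA 11 passed and 0 were called, with 2 higher and 9 lower and a median of -0.39. Over all genes without AA 5798 of 9196 were lower, with a median of -0.17. The list's median depended on scaling. Without AA it was -0.22 after centring, -0.11 at the upper quartile and -0.007 at the same total, where 5 were higher and 6 lower. In the presence of AA it was -0.37, and -0.21, -0.11 and -0.04 under these scalings. With AA 13 passed, 3 higher and 10 lower, and 1 was called, *Grb7*, an adaptor related to *Grb10*, which was 16.1 FPKM without and 7.28 with GSK-J4, a log2 ratio of -1.05. Without AA *Grb7* was 14.6 and 6.95 FPKM, at -0.97, and it was not called with AA under any of the 3 scalings. Over all genes with AA 3.38% were called lower and 5684 of 9139 were lower. The RNA-binding proteins *Igf2bp1*, *Igf2bp2* and *Igf2bp3*, which bind *Igf2* transcripts, are among the lower genes counted for this list. They had log2 ratios between -0.94 and -0.72 in both comparisons. *Igf2*, the ligand that *Igf2r* removes, was 0.909, 0.354, 1.43 and 1.30 FPKM in the same order. Among paralogs of the members, 5 of 8 had a value. *Cdkn1a*, the cell cycle inhibitor p21 related to *Cdkn1c*, was 24.5, 80.5, 22.5 and 73.6 FPKM, with log2 ratios of 1.67 in both comparisons, while *Cdkn1b* lay between 9.05 and 10.3.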

How the data were processed

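Total RNA of 4 libraries was sequenced. By the study's methods, the reads were aligned with TopHat2 and quantified with Cufflinks, and the submitters' processing notes name mm10. The authors deposited FPKM values in 2 tables, 1 per AA condition, under a header that names log10 although the values are linear. Scaling between libraries is not given in the sources used here. Duplicate reads had been removed, which can lower the values of the highest genes, and the named library kit does not state strand. The columns of fold changes, test statistics, p-values and q-values in those tables are the authors' own comparisons and were not used.

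FPKM was summed over the 11033 coding sequence groups per gene, and 157 genes with a failed estimate were left out. Log2 ratios used a pseudocount of 1 FPKM and a minimum FPKM of 1 in either library, with a threshold of 2-fold, in Python 3.11.15, numpy 2.4.6 and pandas 2.3.3, and were tested on simulated data. With 1 library per condition no test was run and no p-value was computed. The number of reads limits the precision of low values, but no read totals were used here. The members and lists were chosen with earlier results of these data known. Named genes are all members with a value, list genes at least 2-fold changed with GSK-J4, and the 3 genes most like the most changed member; neighbours within 200 kb, and *Igf2*, *Igf2bp1*, *Igf2bp2*, *Igf2bp3*, *Dnmt1*, *Cdkn1b*, *Vim* and *Col1a1*, fall outside that rule and were chosen after their values were seen. GENCODE release 21 of the mouse gave exons. 12 alternatives were tried.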

Additional observations from a re-analysis of the deposited data

Results flagged for a closer look

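The log2 ratio with GSK-J4 had opposite signs without and with AA for *Impact*, which was -0.11 and 0.21, a difference of 0.32. It also had opposite signs for *Plagl1*, which was 0.57 without AA and -0.31 with AA, a difference of -0.88, but the second value was below the filter on low levels and entered no count. Neither difference was tested, since each condition has 1 library. For *Impact*, the value without AA reached 0.27 under other scalings.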

How the results depend on the processing

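Of the members' ratios recomputed under the 12 alternatives, 0 reversed in sign among called values, and between 1 and 11 per comparison moved by more than 1.5-fold, changed sign or crossed the threshold. No paired analysis was possible because the labels carry no replicate numbers and the results come from no test. With 1 library per condition no replicate could be left out. The members called higher with GSK-J4 without AA numbered 1, against 2 with a pseudocount of 0.1, 0 with 5, 2 at the same total, 2 at 1.5-fold and 0 at 4-fold. The members called lower numbered 1, against 0 after upper quartile, same total or median scaling and 0 at 4-fold. With AA the higher numbered 1, against 0 with a pseudocount of 5, 2 at the same total, 2 at 1.5-fold and 0 at 4-fold, and the lower numbered 0, against 1 with a pseudocount of 0.1 and 3 at 1.5-fold. For AA with GSK-J4 the lower numbered 0, against 1 with a pseudocount of 0.1.

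The members' median with GSK-J4 without AA, -0.20, was 0.065 after upper quartile and 0.17 after same total scaling, when the median of all genes was 0.07 and 0.16. With AA, -0.15 became 0.031 with FPKM of at least 5 in either library or 1 in both, 0.10 at the upper quartile, 0.17 at the same total, 0.011 after centring and 0.031 with the highest coding group. For AA without GSK-J4, -0.03 became 0.014 at the upper quartile, 0.029 at the same total and 0.020 after centring. For AA with GSK-J4, -0.05 became 0.15 and 0.10 under the stricter filters and 0.046 with the highest coding group. The cause was not tested beyond the construction of each alternative.

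Over all genes the counts called with GSK-J4 without AA, 456 higher and 322 lower, ranged from 48 and 6 at 4-fold to 1063 and 1775 at 1.5-fold, and with AA, 377 and 309, from 38 and 6 to 923 and 1625. With AA alone they ranged from 1 and 3 with a pseudocount of 5, or 4 and 2 at 4-fold, to 185 and 196 at 1.5-fold, and with AA on GSK-J4 from 0 and 8 with a pseudocount of 5, or 1 and 5 at 4-fold, to 157 and 233.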

Other observations

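2 of the other imprinted genes had values that differed widely between the AA conditions. *Sfmbt2*, a Polycomb-related gene, was 5.98 FPKM with PBS and DMSO and 0.386 with PBS and GSK-J4, a log2 ratio of -2.33, the lowest of all genes without AA, while the log2 ratio with AA was -0.49. *Zdbf2* was 2.94 and 1.57 FPKM without AA and 0.337 and 2.46 with AA, log2 ratios of -0.61 and 1.37. Neither difference was tested.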
